A study of Mus musculus with 2 samples.

Results

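The genes described here were 33 genes of glycolysis and of the response to low oxygen, chosen as a list of symbols and not by their values, and all 33 were found among the 19169 genes of a single-cell RNA-seq table from injured mouse muscle. They comprised 3 glucose transporters (Slc2a1, Slc2a3 and Slc2a4), 19 genes for the enzymes that take glucose to lactate, and the PFKFB enzymes Pfkfb3 and Pfkfb4. The list was completed by 2 monocarboxylate transporters (Slc16a1 and Slc16a3), 2 pyruvate dehydrogenase kinases (Pdk1 and Pdk4), and the hypoxia genes Hif1a, Epas1, Egln1, Egln3 and Bnip3. Male mice had been injected with cardiotoxin (CTX), a toxin from snake venom that kills muscle fibers, and their gastrocnemius muscle was taken on day 14. There was 1 library from WT C57BL/6J mice (WT-CTX) and 1 from Gsdme global KO mice (GSDME-KO-CTX), in which the gene for the pore-forming protein gasdermin E is deleted in every cell. The methods of the study give 5 mice per genotype and do not say whether they were pooled, and an age is not given there for these mice.

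Glycolysis turns glucose into pyruvate in the cytosol, and lactate dehydrogenase and the monocarboxylate transporters dispose of the end product. Several steps are encoded by more than 1 gene, and skeletal muscle fibers use isoforms of their own, such as phosphofructokinase M, phosphoglycerate mutase 2 and enolase 3. In low oxygen the alpha subunits of the hypoxia-inducible factors (HIF), encoded by Hif1a and Epas1, escape hydroxylation by the prolyl hydroxylases of the Egln family and switch on many genes of this pathway, Egln1 and Egln3 among them.

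Each value was the number of unique molecular identifiers (UMIs, 1 per captured RNA molecule) summed over the cells of a type in 1 library, given as CPM, which scales to 1000000 UMIs in all of those cells. UMIs were read from the 5′ end of each molecule and were not divided by gene length, so shares within a family are shares of the molecules read. With 1 library per genotype no test between genotypes was run. All intervals are exact 95% intervals and cover counting error only, not the spread between mice. The WT-labelled library held 44758518 UMIs in 6354 cells, and the KO-labelled library 50930009 UMIs in 7078. A total of 4 cell barcodes occurred in both. Gsdme itself was read at 5.03 CPM in the WT-labelled library and 4.65 CPM in the KO-labelled library, a log2 ratio of -0.11 (-0.38 to 0.16). Gsdme RNA was thus not lower in the KO-labelled library beyond counting error, so the labels alone carry each direction given between them. Cells were grouped without the 33 genes into 14 types by their markers, which are called FAP-like (fibro-adipogenic progenitors), MuSC-like (muscle stem cells) and so on. Mural-like cells joined pericyte and smooth muscle markers. A further 873 and 909 cells of the WT- and KO-labelled libraries stayed without a type, and no adipocyte-like group was found.

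The HIF proteins bind the core letters ACGTG or GCGTG on either strand. To show where these letters lie in genes whose levels are described below, the 250 bases before RefSeq start sites (GRCm38.p6) of 5 of them are printed here, with every match in capitals. Hk2 and Hk1 were the pair of hexokinase genes split between cell types, Pgk1 and Ldha are enzymes with different patterns between the libraries, and Egln1 was lower in the KO-labelled library in every type with enough UMIs. Of the Hk1 windows, the one shown first belongs to the more upstream start site.
Hk2, chr6:82774455-82774704, minus strand: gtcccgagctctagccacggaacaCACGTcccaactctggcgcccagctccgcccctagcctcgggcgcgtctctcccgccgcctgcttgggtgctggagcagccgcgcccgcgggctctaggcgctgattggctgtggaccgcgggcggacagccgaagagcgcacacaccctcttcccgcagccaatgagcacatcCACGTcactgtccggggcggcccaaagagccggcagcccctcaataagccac
Hk1, chr10:62379909-62380158, minus strand: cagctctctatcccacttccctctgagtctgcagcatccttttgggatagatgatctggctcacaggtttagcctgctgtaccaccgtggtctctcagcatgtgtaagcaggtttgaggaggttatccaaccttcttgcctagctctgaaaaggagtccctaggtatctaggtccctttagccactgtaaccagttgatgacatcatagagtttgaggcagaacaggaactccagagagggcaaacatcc
Hk1, chr10:62340422-62340671, minus strand: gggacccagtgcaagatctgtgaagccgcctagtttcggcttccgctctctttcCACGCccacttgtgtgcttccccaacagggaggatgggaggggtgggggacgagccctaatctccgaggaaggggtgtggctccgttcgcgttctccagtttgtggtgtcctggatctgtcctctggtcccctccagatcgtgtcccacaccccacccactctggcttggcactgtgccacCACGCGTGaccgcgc
Pgk1, chrX:106186850-106187099, plus strand: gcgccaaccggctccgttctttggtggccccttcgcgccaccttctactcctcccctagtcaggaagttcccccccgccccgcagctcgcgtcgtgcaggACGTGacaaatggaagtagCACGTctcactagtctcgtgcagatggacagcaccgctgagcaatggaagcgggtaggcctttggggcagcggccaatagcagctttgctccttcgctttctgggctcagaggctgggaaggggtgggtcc
Ldha, chr7:46845554-46845803, plus strand: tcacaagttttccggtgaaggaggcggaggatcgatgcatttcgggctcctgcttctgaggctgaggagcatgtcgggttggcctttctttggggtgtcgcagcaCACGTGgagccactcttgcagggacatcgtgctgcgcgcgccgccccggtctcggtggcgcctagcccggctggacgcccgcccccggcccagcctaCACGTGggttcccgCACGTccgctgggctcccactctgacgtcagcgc
Egln1, chr8:124949255-124949504, minus strand: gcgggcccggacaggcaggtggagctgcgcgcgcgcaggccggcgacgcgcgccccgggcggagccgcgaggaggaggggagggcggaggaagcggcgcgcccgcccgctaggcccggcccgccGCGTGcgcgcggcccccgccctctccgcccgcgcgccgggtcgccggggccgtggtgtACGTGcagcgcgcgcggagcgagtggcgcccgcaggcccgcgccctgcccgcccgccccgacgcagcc
The Hk2, Pgk1 and Egln1 windows each held 2 matches. The Hk1 windows held 0 and 3 matches, the latter with overlapping matches in 1 run of capitals, and the Ldha window shown held 5, since a CACGTG counts once on each strand. A second Ldha window, which is not printed, held 1 match. Of the 33 genes, 30 had such a window in the reference table (all but Slc2a3, Slc2a4 and Epas1), and 26 of these 30 genes (86.7%) had a match in at least 1 window, beside 41.5% of 27025 genes. Counted by window, 34 of the 43 windows of members had a match, beside 38.6% of 32851 windows. The compared genes were not matched to the members in base content or expression. A match describes the letters and not a bound site.

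Across cell types the 33 genes fell into a set that was highest in fibers and smaller groups with other patterns. The type with the highest CPM was the same in both libraries for 20 of the 33 genes, beside 48.4% of the 13380 genes with at least 100 UMIs over all cells. Muscle-fiber-like cells were on top for 12 genes in both libraries (Slc2a4, Gpi1, Pfkm, Aldoa, Tpi1, Gapdh, Pgk1, Pgam2, Eno3, Ldha, Egln1 and Bnip3). The share of all genes with fiber-like cells on top was not counted, so whether this number is unusual is not known. Hk2 was highest in FAP-like, Epas1 in endothelial-like, Pfkfb3 in mural-like, Eno2 and Ldhb in Schwann-like, Slc2a1 and Slc16a3 in neutrophil-like, and Slc16a1 in mast-like cells. Some of these orders rest on few molecules. Slc16a1 had 4 UMIs in mast-like cells of each library, Slc2a1 had 10 and 15 UMIs in neutrophil-like cells, and the fiber-like class held 34 and 63 cells. Egln1 in the WT-labelled library was at 152 CPM in fiber-like cells from 14 UMIs, level with 151 CPM in endothelial-like cells from 1224 UMIs. The other 13 genes had different types on top in the 2 libraries.

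For most of these 13 genes the rarer types changed places at low counts. Slc2a3 was highest in mast-like cells (65.4 CPM, 2 UMIs) of the WT-labelled library and in neutrophil-like cells (84.8 CPM, 13 UMIs) of the KO-labelled library. Hk1 was highest in mural-like (91.3 CPM) and mast-like cells (180 CPM, 5 UMIs), Pfkl in B-cell-like (59.9 CPM, 8 UMIs) and endothelial-like cells (27.5 CPM), and Aldoc in neutrophil-like (35.1 CPM, 4 UMIs) and dendritic-like cells (22.3 CPM, 25 UMIs). Lymphoid and myeloid cells carried several of the general isoforms. Pfkp was highest in T-cell-like cells of the WT-labelled library (207 CPM, 165 to 257) and in dendritic-like cells of the KO-labelled library (227 CPM, 200 to 257), Eno1 in NK-like (202 CPM, 30 UMIs) and T-cell-like cells (170 CPM, 68 UMIs), and Pgam1 in B-cell-like (165 CPM, 22 UMIs) and T-cell-like cells (138 CPM, 55 UMIs). The remaining tops were macrophage-like and neutrophil-like cells for Pfkfb4, fiber-like and mast-like cells for Pdk1, MuSC-like and fiber-like cells for Pdk4, neutrophil-like and fiber-like cells for Pkm, T-cell-like and mast-like cells for Hif1a and fiber-like and T-cell-like cells for Egln3. At the other end, 16 members in the WT-labelled library and 18 in the KO-labelled library had 0 UMIs in at least 1 type, most often in mast-like cells. Those cells were so few that 0 UMIs allowed up to 121 and 132 CPM. Among members never at 0, Hk1 and Pgam1 were lowest in fiber-like cells, at 10.8 and 5.54 CPM and at 10.8 and 30.5 CPM. Slc16a1 was lowest in fiber-like cells of the WT-labelled library (10.8 CPM) and dendritic-like cells of the KO-labelled library (6.26 CPM). Aldoa was lowest in macrophage-like cells, at 211 and 189 CPM, and Gapdh in tendon-like cells, at 439 and 391 CPM. Tpi1 was lowest in B-cell-like cells, at 22.5 and 32.6 CPM. Hif1a was lowest in fiber-like cells at 65.0 and 36.0 CPM, from 6 and 13 UMIs, and Epas1 in neutrophil-like cells with 1 and 2 UMIs.

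**Figure D1:**
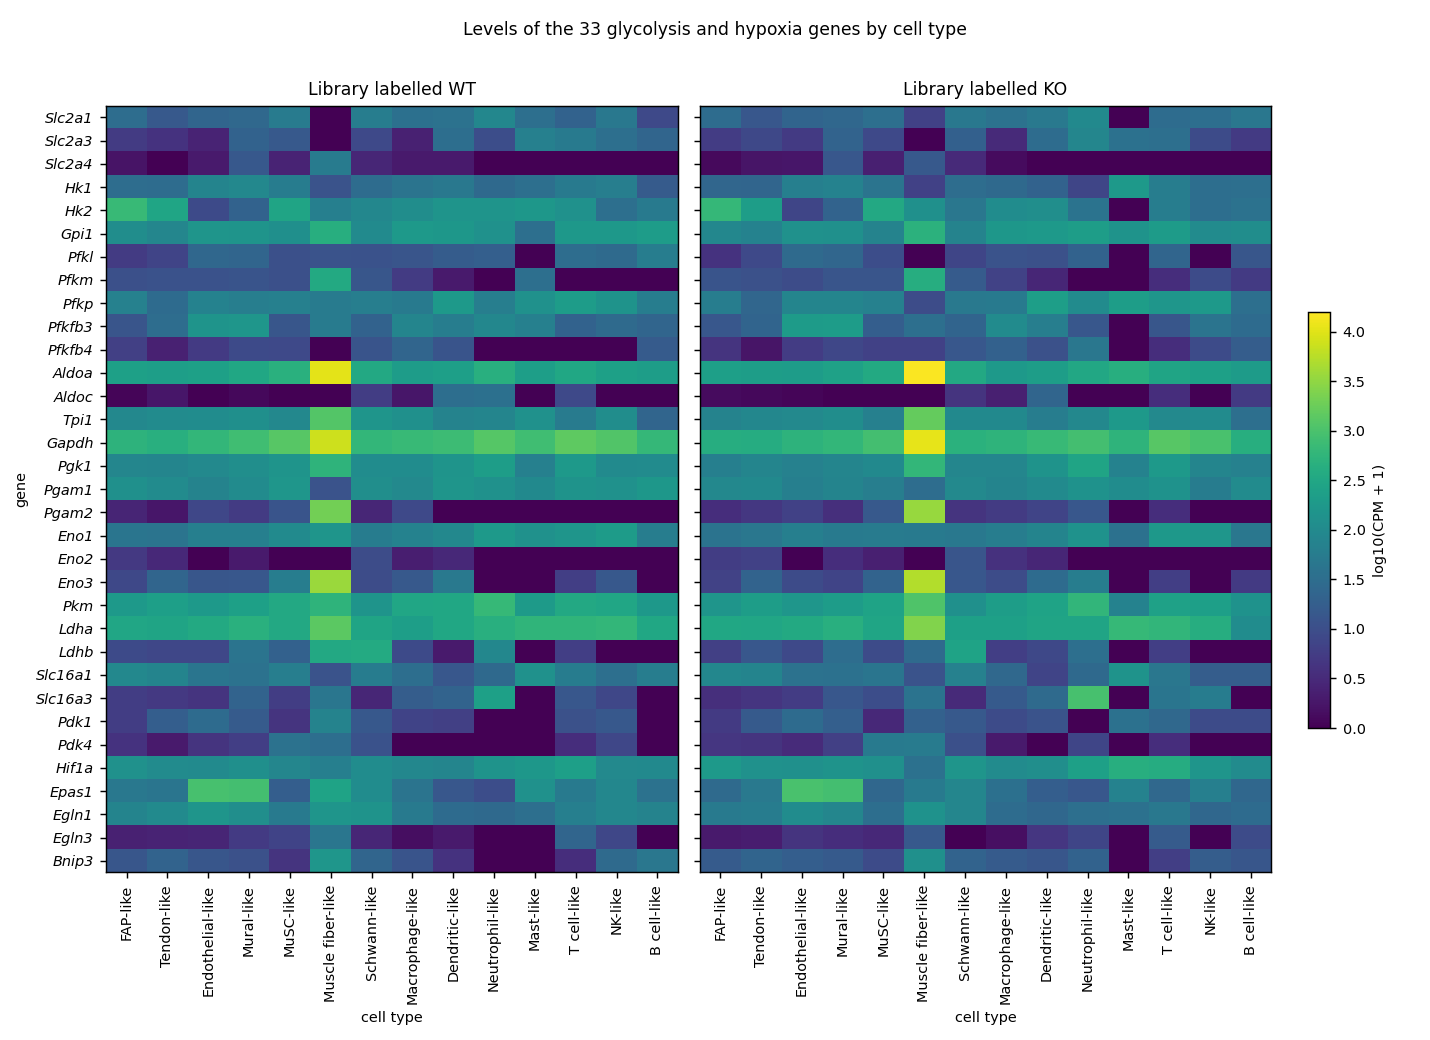
Levels of the 33 genes (rows, by role) in 14 cell types (columns) of the WT-labelled library (left) and of the KO-labelled library (right), as log10(CPM + 1). The fiber-like column is brightest for Aldoa, Gapdh, Eno3 and Pgam2, Hk2 is brightest in FAP-like cells and Epas1 in endothelial-like and mural-like cells.

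Among the glucose transporters, Slc2a1 (GLUT1) was the most read in all 8 types with at least 30 UMIs of the family. It held 93.4% of the family's UMIs in macrophage-like cells of the WT-labelled library (88.8 to 96.5) and 93.5% in the KO-labelled library (89.6 to 96.3). Mural-like cells had the lowest share, at 43.4% (37.5 to 49.4) and 41.8% (36.4 to 47.4). There Slc2a4, the insulin-responsive transporter GLUT4, took 23.1% and 21.8% of the family, and its level was 13.6 CPM (10.5 to 17.4) and 12.6 CPM (9.83 to 15.9). Within mural-like cells the Slc2a4 level was higher in the cluster led by the smooth muscle genes Acta2 and Myh11, at 53.8 and 49.7 CPM from 24 and 26 UMIs in the WT- and KO-labelled libraries, against 9.47 and 8.79 CPM from 41 and 45 UMIs in the larger cluster led by Rgs5. These are log2 differences of 2.51 (1.72 to 3.27) and 2.50 (1.74 to 3.23). Fiber-like cells, the textbook site of GLUT4, were on top for Slc2a4 with only 5 UMIs in each library (54.2 CPM, 17.6 to 126, and 13.8 CPM, 4.50 to 32.3), and in the KO-labelled library this interval took in the mural-like level. Slc2a3 (GLUT3) was read at 53.1 and 32.6 CPM in T-cell-like cells, from 21 and 13 UMIs.

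The hexokinases, which trap glucose by phosphorylating it, split by cell type. Hk2 stood at 678 CPM (664 to 692) in FAP-like cells of the WT-labelled library and 637 CPM (625 to 648) in the KO-labelled library, from 8902 and 11802 UMIs. In endothelial-like cells Hk2 was at 7.67 CPM (5.88 to 9.83) and 6.53 CPM (4.84 to 8.60), with 62 and 50 UMIs. Hk1, the broadly used isoform, was at 77.8 CPM (71.8 to 84.1) and 65.1 CPM (59.5 to 71.1) in the same endothelial-like cells and at 30.8 and 22.9 CPM in FAP-like cells. Hk2 thus made up 95.7% (95.2 to 96.1) and 96.5% (96.2 to 96.8) of hexokinase molecules in FAP-like cells but 8.97% (6.95 to 11.4) and 9.11% (6.84 to 11.8) in endothelial-like cells. Mural-like cells were on the Hk1 side with 18.2% and 22.5% of Hk2, and MuSC-like, tendon-like and macrophage-like cells on the Hk2 side, the last with 74.2% and 80.8%. Most mural-like UMIs came from the Rgs5 cluster, which also carried endothelial markers, and how far endothelial RNA set the mural-like share was not tested. When each cell was thinned to 1000 UMIs, Hk2 was seen in 40.9% and 40.5% of FAP-like cells and in 1.21% and 0.644% of endothelial-like cells of the WT- and KO-labelled libraries. Unthinned, these shares were 79.3% and 82.2% of FAP-like and 4.29% and 2.67% of endothelial-like cells, whose median depth was 4569 and 4179.5 UMIs, beside 7507 and 8355.5 in FAP-like cells. Whether free RNA from other cells gave the endothelial-like share was not tested, and that share is not read as expression.

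Hk2 also varied within the FAP-like class. Its level was 735 and 681 CPM in the cells named from Pi16 and Dpp4 (progenitor markers), 723 and 666 CPM in those named from Hsd11b1 and Mme, and 411 and 383 CPM in those named from Clu. The group with Clu was the lowest in both libraries, by a log2 difference from the Pi16 group of 0.84 (0.72 to 0.96) and 0.83 (0.72 to 0.94). Ldha ran the other way, at a log2 difference of -0.91 and -0.86 between the Pi16 and Clu groups. Slc16a1 was higher in the Pi16 than in the Hsd11b1 group by 0.83 (0.66 to 1.01) and 0.71 (0.56 to 0.87).

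Gpi1, which isomerizes glucose-6-phosphate, was read in every type and was highest in fiber-like cells, at 434 CPM (310 to 590) and 490 CPM (421 to 568). The next step, phosphofructokinase, commits sugar to glycolysis. Pfkm was 84.6% (69.5 to 94.1) of the family in fiber-like cells of the WT-labelled library and 98.0% (94.4 to 99.6) in those of the KO-labelled library. Pfkp, the platelet-type isoform, was the leading gene elsewhere, with 91.8% and 95.1% in dendritic-like and 83.4% and 80.8% in FAP-like cells. Pfkm fell to 0 of 94 family UMIs in T-cell-like cells of the WT-labelled library, which allows a share of up to 3.85%, and was 0.749% (0.0908 to 2.68) of the family in dendritic-like cells of the KO-labelled library. Pfkl, the liver isoform, reached 24.2 and 27.5 CPM in endothelial-like cells and 4.42 and 3.07 CPM in FAP-like cells.

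The PFKFB enzymes make the allosteric activator of phosphofructokinase, and Pfkfb3 was their main gene in every type with enough UMIs. It was a vascular and myeloid gene here, with 162 CPM (151 to 174) and 205 CPM (194 to 217) in mural-like cells, 146 CPM (138 to 155) and 201 CPM (191 to 211) in endothelial-like cells and 80.3 and 104 CPM in macrophage-like cells. FAP-like cells held 11.7 and 12.8 CPM. Among endothelial-like cells, Pfkfb3 was at 171 and 246 CPM in the cluster led by Flt1 and Aqp1 and at 28.4 and 36.2 CPM in the cluster led by Aplnr and Sox18, log2 differences of 2.59 (2.1 to 3.13) and 2.76 (2.32 to 3.24). Among mural-like cells Pfkfb3 was at 177 and 222 CPM in the cluster led by Rgs5 and at 15.7 and 44.0 CPM in the cluster led by Acta2. The Rgs5 cluster also carried endothelial markers and a median of 12866.5 and 12774 UMIs per cell, against 1838 and 1754 in the Acta2 cluster, and how far endothelial RNA set its Pfkfb3 level was not tested. Pfkfb4 took its largest share of the family in the WT-labelled library in MuSC-like cells, at 37.8% (22.5 to 55.2) of 37 UMIs, and its smallest in endothelial-like cells, at 2.80% (1.95 to 3.89). In macrophage-like cells Pfkfb4 was at 22.7 and 18.9 CPM.

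In the middle of the pathway fiber-like cells stood far above all other types. Aldoa (aldolase A) was at 10602 CPM (9948 to 11288) and 15193 CPM (14793 to 15600) in fiber-like cells, and no other type passed 459 CPM. Gapdh was at 7665 CPM (7110 to 8251) and 11198 CPM (10856 to 11549), and Tpi1 at 1182 CPM (970 to 1425) and 1615 CPM (1486 to 1751). Pgk1, the first enzyme to return ATP, was at 542 CPM (402 to 715) and 598 CPM (521 to 684), a smaller step above the other types. Gapdh, Ldha, Pgam1 and Eno1 have near-identical copies in the mouse genome, and reads that map to several places are not counted by the kind of pipeline used, so their levels may be too low in all types. The copy Eno1b had 84 and 97 UMIs over all cells, beside 2900 and 2775 of Eno1. Aldoc, the brain aldolase, was 12.2% (8.41 to 16.8) and 9.51% (6.25 to 13.7) of aldolase molecules in dendritic-like cells, and in the endothelial-like cells of the WT-labelled library it was at 0 of 1968, which allows up to 0.187%.

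The muscle isoforms Pgam2 and Eno3 led their families in fibers and in no other type with at least 30 UMIs of the family. Pgam2 made up 99.5% (97.1 to 100) and 99.1% (98.5 to 99.6) of the phosphoglycerate mutases in fiber-like cells, at 2016 CPM (1737 to 2328) and 3526 CPM (3335 to 3725). Pgam1 held the family elsewhere, from 149 of 149 UMIs in dendritic-like cells of the WT-labelled library to 89 of 109 in MuSC-like cells of the KO-labelled library. Eno3 was 96.0% (93.4 to 97.8) and 99.0% (98.5 to 99.4) of the enolases in fiber-like cells, and Eno1 96.8% (88.8 to 99.6) and 97.1% (90.1 to 99.7) in T-cell-like cells. Outside fibers the share of Eno3 reached 37.3% and 27.0% in MuSC-like, 34.6% and 26.2% in dendritic-like and 34.5% and 28.9% in tendon-like cells. Eno2, the neuronal enolase, was highest in Schwann-like cells with 9 and 11 UMIs (8.44 and 11.9 CPM). Pkm, the muscle and general pyruvate kinase, was at 650 CPM (510 to 816) and 574 CPM (461 to 708) in neutrophil-like cells and at 542 CPM (402 to 715) and 1097 CPM (991 to 1210) in fiber-like cells.

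Fiber RNA was read in cells of all types, and muscle isoforms outside fibers have to be set against it. The 12 fiber markers summed to 162321 and 270621 CPM in fiber-like cells, to 541 and 366 CPM in endothelial-like and to 973 and 1191 CPM in MuSC-like cells, and all 12 were seen in each of the 5 other types compared between the libraries. For every 100 UMIs of these markers there were 1.24 (1.07 to 1.43) and 1.30 (1.23 to 1.38) UMIs of Pgam2 in fiber-like cells. In the 10 other pairs of type and library with at least 1000 fiber UMIs the same ratio lay between 1.08 and 1.5, so Pgam2 stood to the fiber markers there as it did in fibers. Eno3 was at 2.26 (2.02 to 2.51) and 1.92 (1.83 to 2.01) per 100 fiber UMIs in fiber-like cells. It was near this in endothelial-like cells, at 2.24 and 2.25, and in macrophage-like cells, at 2.44 and 2.29. Eno3 was above it in MuSC-like cells of the WT-labelled library, at 6.19 (5.10 to 7.45), against 1.73 (1.17 to 2.47) in the KO-labelled library. Eno3 was also above the fiber value in FAP-like cells, at 5.10 (4.13 to 6.24) and 3.02 (2.47 to 3.65). In mural-like cells Eno3 was at 3.41 (2.60 to 4.39) and 2.52 (1.76 to 3.51), above the fiber value beyond counting error in the WT-labelled library only. Eno3 was further above it in tendon-like cells, at 21.4 (17.6 to 25.7) and 13.1 (10.5 to 16.2), and in dendritic-like cells, at 21.3 (15.6 to 28.4) and 10.9 (7.44 to 15.4). From 9 UMIs in neutrophil-like cells of the KO-labelled library it was at 18.4 (8.40 to 34.9).

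**Figure D2:**
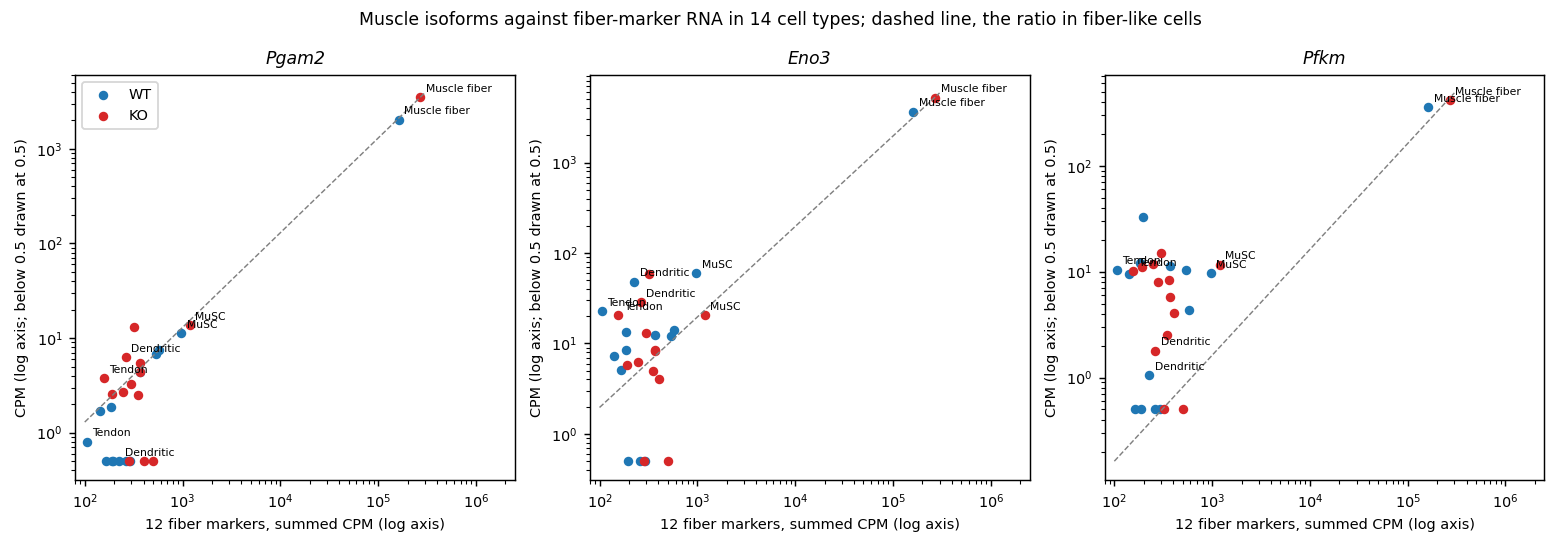
CPM of Pgam2, Eno3 and Pfkm (vertical, log axis) against the summed CPM of 12 fiber markers (horizontal, log axis), 1 point for each of 14 cell types in each library. The dashed line is the ratio in fiber-like cells of both libraries together. Pgam2 follows it, while Eno3 lies above it in several types, tendon-like and dendritic-like cells among them, and Pfkm in most types.

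At the end of the pathway Ldha, which turns pyruvate into lactate, was the main lactate dehydrogenase in every type but 1. It was at 308 CPM (299 to 318) and 316 CPM (308 to 324) in FAP-like cells and at 1388 and 2554 CPM in fiber-like cells. Schwann-like cells, the glia of peripheral nerve, were the exception. There Ldhb, the isoform that favors the use of lactate, was at 365 CPM (329 to 403) and 271 CPM (238 to 306) and held 56.3% (52.5 to 60.0) and 52.4% (47.8 to 57.0) of the family. FAP-like cells had 7.62 and 5.34 CPM of Ldhb, a share of 2.41% and 1.66%, and NK-like cells had 0 of 89 and 0 of 52 UMIs, which allows up to 4.06% and 6.85%. After thinning to 1000 UMIs, Ldhb was seen in 34.4% and 32.8% of Schwann-like and 1.2% and 0.751% of FAP-like cells.

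The lactate carriers divided by lineage. Slc16a1 (MCT1) was the carrier of FAP-like cells, at 90.9 CPM (85.8 to 96.2) and 85.3 CPM (81.2 to 89.7), and left 4.94% (3.81 to 6.29) and 3.06% (2.28 to 4.02) of the pair to Slc16a3. Slc16a3 (MCT4), known for lactate export, held 90.3% (74.2 to 98.0) of 31 UMIs and 97.4% (93.4 to 99.3) of 151 UMIs in neutrophil-like cells. Dendritic-like cells were on the same side, with 62.5% and 81.1%. Macrophage-like cells were between, with 33.6% and 36.9%, as were mural-like cells, with 35.7% and 26.5%. Among the kinases that inhibit pyruvate dehydrogenase, Pdk4 held 92.1% (83.6 to 97.0) and 96.2% (89.3 to 99.2) of the pair in MuSC-like cells, and Pdk1 89.3% (84.9 to 92.8) and 92.3% (88.2 to 95.4) in endothelial-like cells. Pdk4 was at 37.7 and 52.2 CPM in MuSC-like cells and Pdk1 at 28.0 and 28.3 CPM in endothelial-like cells.

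**Figure D3:**
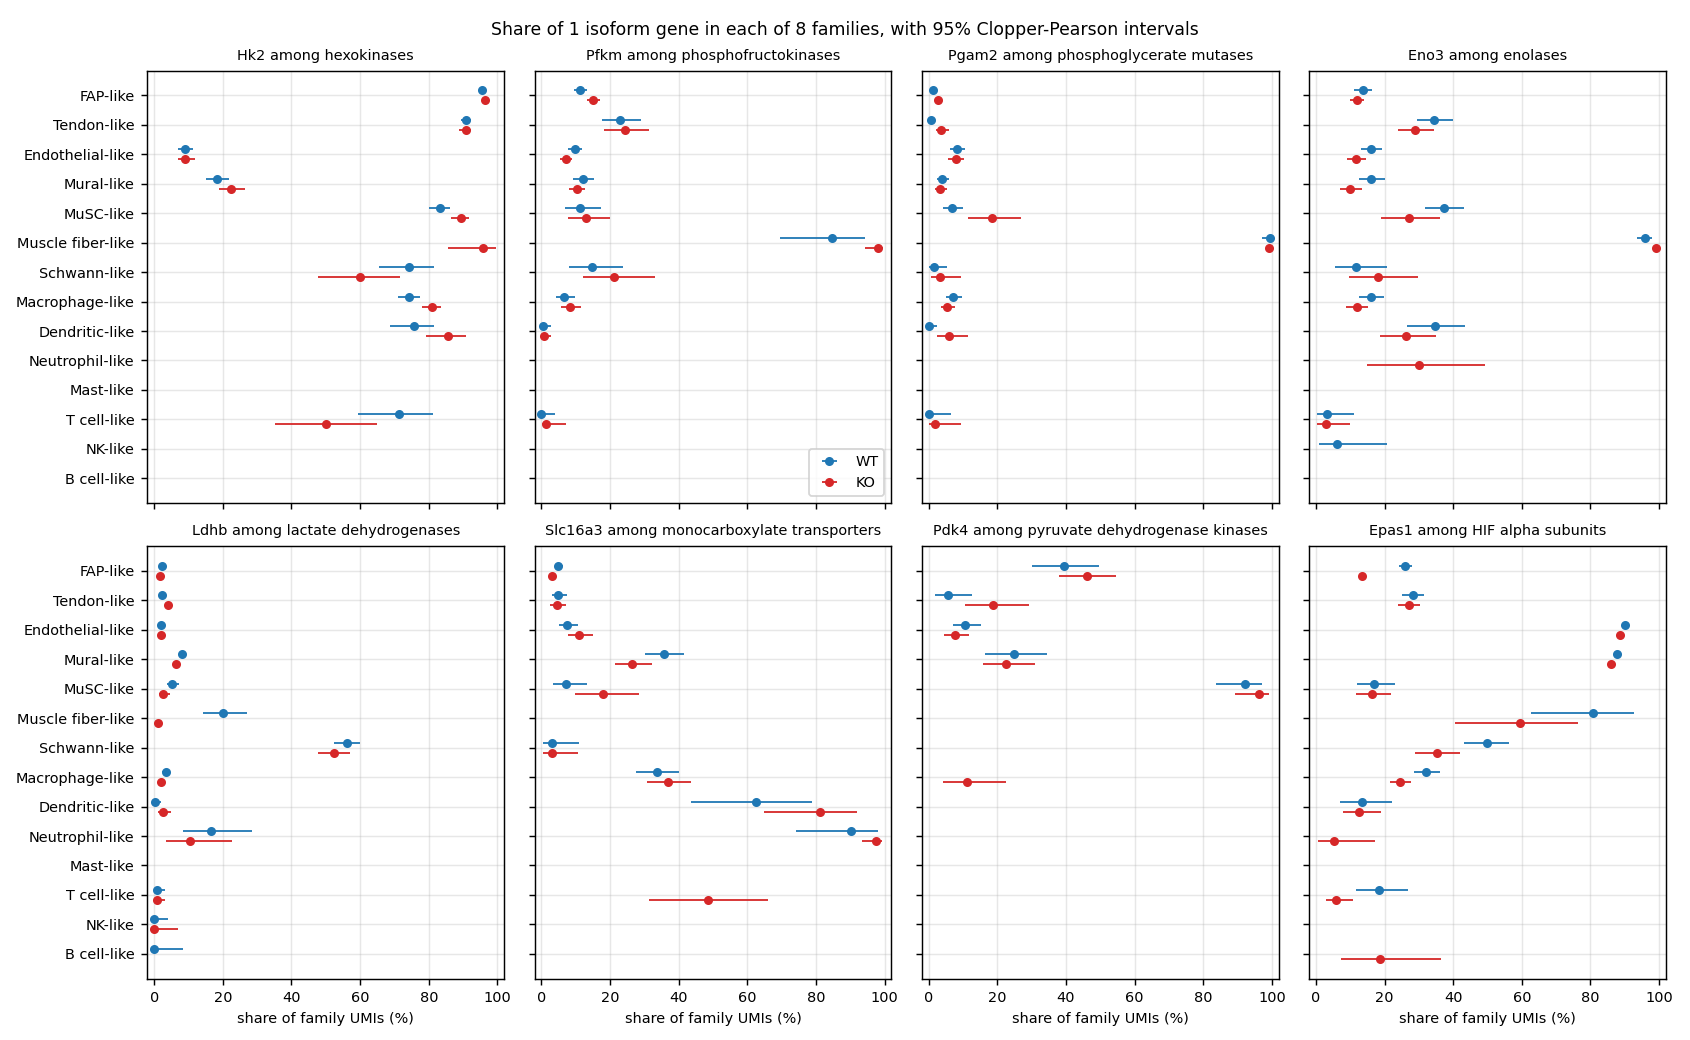
Share (%) of 1 isoform gene among the UMIs of its family in 14 cell types, blue for the WT-labelled library and red for the KO-labelled library, with 95% Clopper-Pearson intervals, for types with at least 30 UMIs of the family. Hk2 is near 96% in FAP-like and 9% in endothelial-like cells, Pgam2 near 99% in fiber-like cells, and Ldhb is over 50% in Schwann-like cells in both libraries.

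The HIF alpha subunits showed the same kind of division. Epas1 was at 940 CPM (919 to 961) and 980 CPM (958 to 1002) in endothelial-like cells and at 888 and 876 CPM in mural-like cells, where it made up 90.1% and 88.6% and 87.7% and 85.9% of the pair. In the mural-like cluster led by Acta2, apart from the Rgs5 cluster that carried endothelial markers, Epas1 was at 832 CPM (750 to 921) and 734 CPM (663 to 812). In MuSC-like cells Hif1a held 83.0% (76.8 to 88.1) and 83.7% (78.2 to 88.3), and in dendritic-like cells 86.7% and 87.3%. Epas1 was far lower in the lymphatic-like endothelial cells, by log2 differences of -2.50 (-2.78 to -2.24) and -2.52 (-2.80 to -2.26) from the other endothelial-like cells. In macrophage-like cells Epas1 was lower in the group with Trem2 than in the resident group with Lyve1 and Folr2, by -2.21 (-2.75 to -1.69) and -3.23 (-3.97 to -2.55). Slc2a1 was higher in the Trem2 group, by 1.82 (1.25 to 2.43) and 1.40 (0.94 to 1.88). Egln1, the main oxygen sensor of the family, held nearly all Egln molecules in most types, and Egln3 had its largest share in T-cell-like cells of the WT-labelled library at 26.5% (12.9 to 44.4) of 34 UMIs. Bnip3, a HIF target gene for removal of mitochondria, was at 163 CPM (91.0 to 268) and 127 CPM (93.3 to 170) in fiber-like cells and at 9.84 and 14.7 CPM in mural-like cells. In all, 8 of the 12 families had different leading genes in different types in both libraries.

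Between the libraries most members were slightly lower in the KO-labelled library in the types other than fibers. Among the regulators, Egln1 was lower and Hif1a higher in most types. A gene was counted as past the fold at a log2 ratio of at least 0.5 in size, with at least 100 UMIs over both libraries in the type. Over the 6 types compared there were 130 pairs of gene and type, 22 lower and 8 higher past the fold in the KO-labelled library. Among all genes with enough UMIs, 3.89% to 16.5% were lower and 3.89% to 22.7% higher, depending on the type. The pairs were unevenly spread, with 9 of the 22 in MuSC-like cells and 6 of the 8 in fiber-like cells. With no like count made for other genes, the 19 enzyme genes together were lower in the KO-labelled library in 12 of 14 types. Their sum was 2514 CPM (2487 to 2541) and 2220 CPM (2199 to 2242) in FAP-like cells, so that the ratio was -0.18 (-0.20 to -0.16) on the log2 scale. It was 3577 CPM (3492 to 3664) and 2695 CPM (2612 to 2781) in MuSC-like cells, a ratio of -0.41 (-0.47 to -0.35). In fiber-like cells the sum was 29043 and 42124 CPM, a ratio of 0.54 (0.48 to 0.60). The 12 fiber markers there also rose, from 162321 CPM in the WT-labelled library to 270621 CPM in the KO-labelled library.

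**Figure D4:**
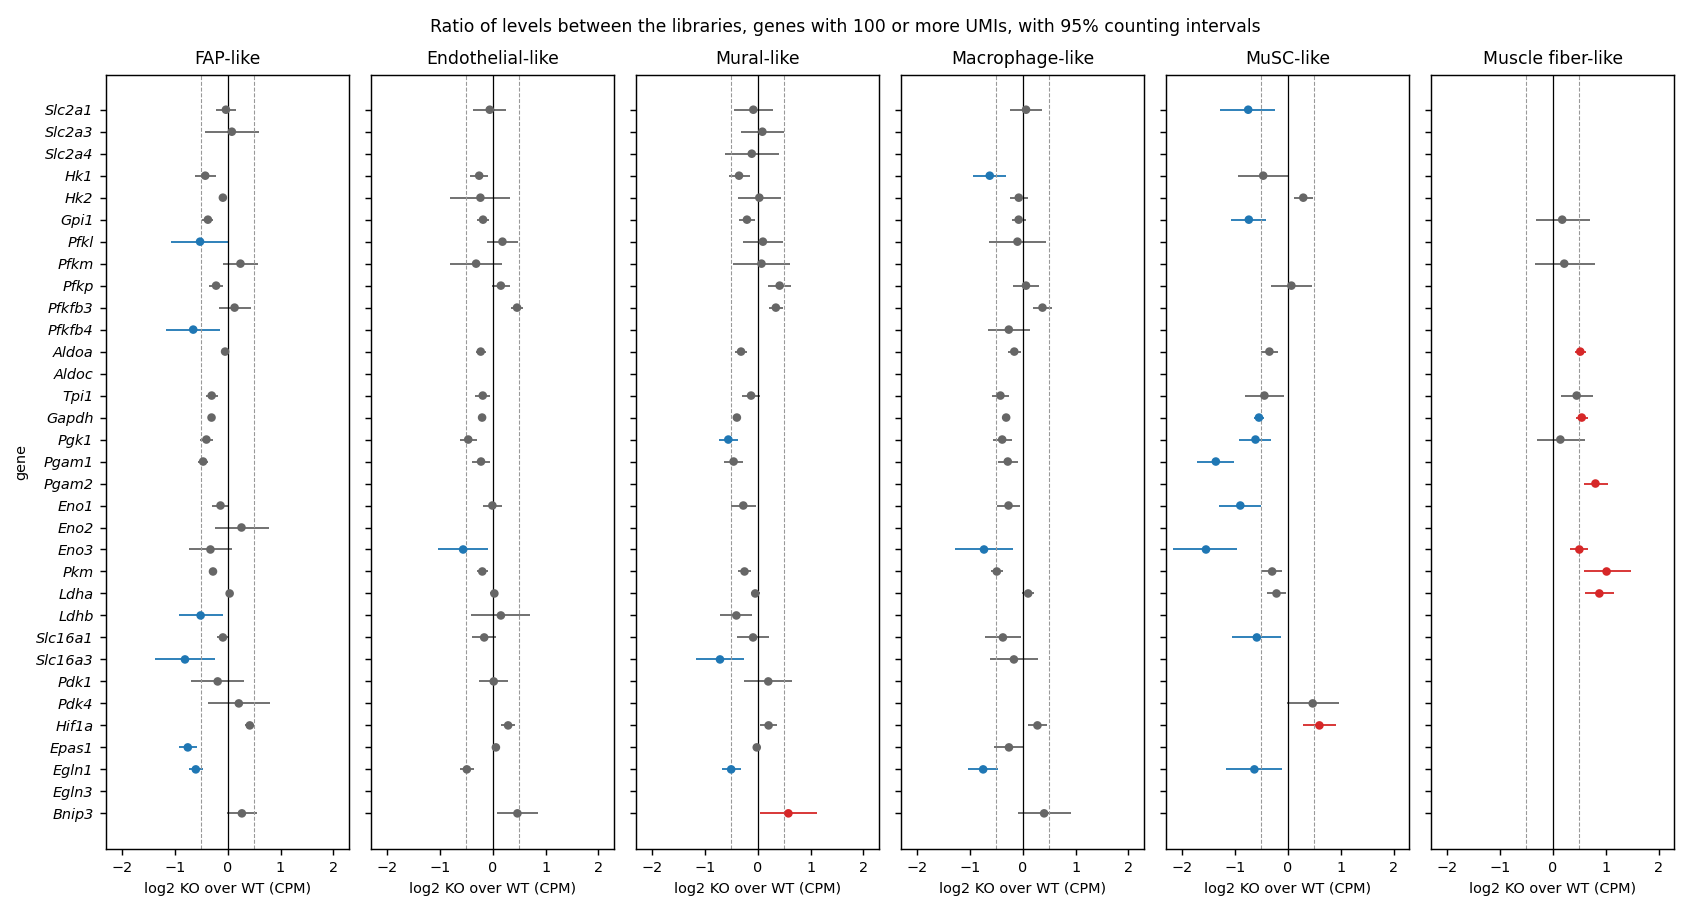
Log2 ratio of CPM in the KO-labelled over the WT-labelled library (horizontal) for members with at least 100 UMIs (vertical) in 6 cell types, with exact 95% counting intervals. Blue points are lower and red points higher by at least 0.5 (dashed lines), and the points past the fold are mostly blue in every type but fiber-like cells.

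Egln1 was lower in 12 of 14 types, 6 of them past the fold, with no like count made over all genes. It was at 151 CPM (143 to 160) in endothelial-like cells of the WT-labelled library and 108 CPM (101 to 115) in those of the KO-labelled library, at 76.6 and 50.4 CPM in FAP-like cells, at 117 and 82.6 CPM in mural-like cells and at 49.99 and 29.7 CPM in macrophage-like cells. All 7 types with at least 100 UMIs (FAP-like, tendon-like, endothelial-like, mural-like, MuSC-like, Schwann-like and macrophage-like) had a log2 ratio between -0.83 and -0.49. It was also lower in each group within FAP-like cells, by -0.57, -0.65 and -0.59, and in the resident and Trem2 macrophage-like groups, by -0.68 (-1.06 to -0.30) and -0.86 (-1.35 to -0.39). Hif1a was higher in 13 of 14 types, also without a like count over all genes. It was at 133 CPM (126 to 139) and 177 CPM (171 to 183) in FAP-like, 103 and 126 CPM in endothelial-like, 83.9 and 127 CPM in MuSC-like and 235 CPM (190 to 288) and 393 CPM (334 to 460) in T-cell-like cells, and its ratio lay between 0.20 and 0.74 in the 9 types with at least 100 UMIs. Hif1a was the 1 member of the 15 with enough UMIs in all 7 types named above that was higher in each of them, beside 10.4% of 3062 genes. Being higher in all 7 was thus not rare among all genes. There were 8 of the 15 members lower in each (Egln1, Pgk1, Tpi1, Gapdh, Gpi1, Aldoa, Pkm and Pgam1), beside 12.6% of these genes. The 7 types were chosen after the values of Egln1 had been seen, and their ratios share the 2 libraries, so they are not 7 independent comparisons.

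**Figure D5:**
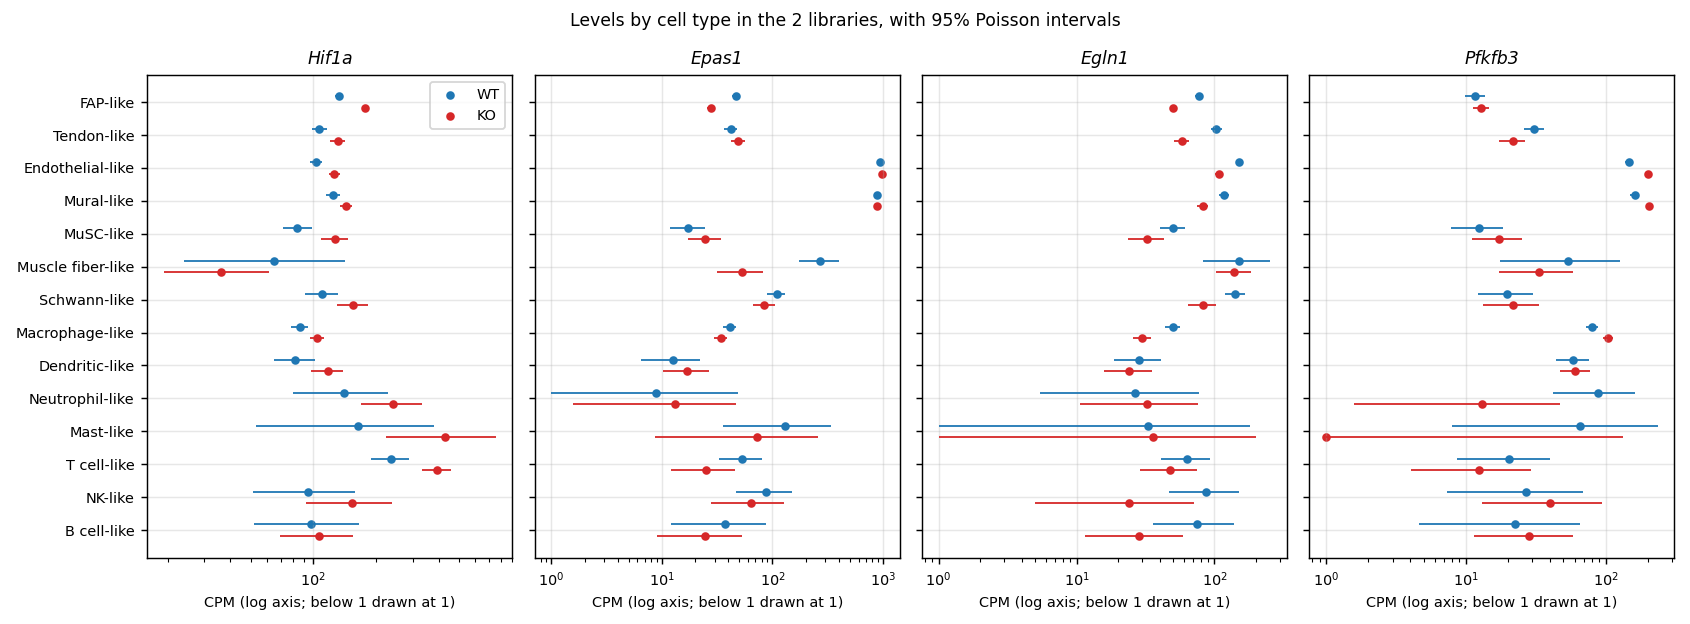
CPM (log axis) of Hif1a, Epas1, Egln1 and Pfkfb3 in 14 cell types, blue for the WT-labelled library and red for the KO-labelled library, with exact 95% Poisson intervals and values under 1 drawn at 1. Red lies left of blue for Egln1 and right of blue for Hif1a in the types with narrow intervals, and Epas1 and Pfkfb3 differ most between types.

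In FAP-like cells 6 of 29 members with enough UMIs were lower and 0 higher past the fold, beside 7.5% and 3.89% of 10311 genes. The median log2 ratio was -0.22 over these members and -0.05 over all genes. Epas1 was at 46.7 CPM (43.1 to 50.6) and 27.7 CPM (25.3 to 30.2), a ratio of -0.75 (-0.93 to -0.58), and its share of the HIF pair was 26.0% (24.3 to 27.9) in the WT-labelled library and 13.5% (12.4 to 14.6) in the KO-labelled library. Egln1 was at -0.60 (-0.73 to -0.47). The other 4 were scarce, at 4.42 to 7.62 CPM in the WT-labelled library and 2.70 to 5.34 CPM in the KO-labelled library. Slc16a3 was at -0.81 (-1.38 to -0.25), Pfkfb4 at -0.65 (-1.17 to -0.14), Pfkl at -0.52 (-1.08 to 0.03) and Ldhb at -0.51 (-0.93 to -0.10). Short of the fold were Pgam1 at -0.47 (-0.56 to -0.37), Pgk1 at -0.40 (-0.52 to -0.28) and Hif1a at 0.42 (0.33 to 0.50). Hk2 was at -0.09 (-0.13 to -0.05).

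In MuSC-like cells 9 of 18 members were lower and 1 higher, beside 11.7% and 14.6% of 4534 genes, and the median log2 ratio was -0.51 over the members and -0.00 over all genes. Pgam1 was at 157 CPM (140 to 176) in the WT-labelled library and 61.1 CPM (49.1 to 75.2) in the KO-labelled library, a ratio of -1.36 (-1.72 to -1.02). Eno3 was at 60.3 CPM (49.6 to 72.5) and 20.6 CPM (13.9 to 29.4), a ratio of -1.55 (-2.18 to -0.96), while the fiber markers in these cells had a median ratio of 0.05. The others were Eno1 at -0.90 (-1.30 to -0.51), Slc2a1 at -0.75 (-1.28 to -0.24), Gpi1 at -0.74 (-1.08 to -0.40), Egln1 at -0.63 (-1.17 to -0.11), Pgk1 at -0.61 (-0.92 to -0.31), Slc16a1 at -0.59 (-1.06 to -0.12) and Gapdh at -0.55 (-0.64 to -0.45). Hif1a was at 0.60 (0.28 to 0.91). Hk2, at 280 CPM (256 to 305) and 343 CPM (313 to 374), was at 0.29 (0.11 to 0.47). Of 16 genes of dissociation and stress, 10 were higher and 0 lower past the fold in these cells, with a median of 0.71, and their part in the members' ratios was not tested.

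In endothelial-like and mural-like cells Pgk1 and Egln1 were lower and Pfkfb3 was higher, all 3 short of the fold in endothelial-like cells. These directions were not particular to them. Macrophage-like cells had Pgk1 at -0.39, Egln1 at -0.75 and Pfkfb3 at 0.37, and Pgk1 and Egln1 were also lower in FAP-like and MuSC-like cells. Most mural-like UMIs came from the Rgs5 cluster, and how far its endothelial RNA made the 2 types alike was not tested. In endothelial-like cells 1 of 24 members was lower (Eno3, 12.1 and 8.22 CPM, -0.56, -1.04 to -0.09) and 0 higher, beside 3.89% and 5.07% of 9071 genes. The fiber markers in these cells had a median ratio of -0.53 and Eno3 stood to them as in fibers. Pgk1 was at -0.46 (-0.63 to -0.30), Egln1 at -0.49 (-0.62 to -0.36) and Pfkfb3 at 0.46 (0.35 to 0.57). In mural-like cells 3 of 26 members were lower and 1 higher, beside 4.01% and 5.87% of 8277 genes. Lower were Slc16a3 (20.9 and 12.8 CPM) at -0.71 (-1.17 to -0.26), Pgk1 (119 and 81.0 CPM) at -0.56 (-0.74 to -0.38) and Egln1 at -0.50 (-0.68 to -0.32), and higher was Bnip3 at 0.58 (0.05 to 1.13). Without the Rgs5 cluster that carried endothelial markers, 1 member was lower and 0 higher past the fold.

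In macrophage-like cells 3 of 23 members were lower and 0 higher, beside 7.15% and 5.74% of 7511 genes. Egln1 was at -0.75 (-1.04 to -0.46), Hk1 (39.9 and 25.8 CPM) at -0.63 (-0.94 to -0.31) and Eno3 (14.05 and 8.44 CPM) at -0.73 (-1.29 to -0.19). The fiber markers in these cells had a median ratio of -0.64, and Eno3 stood to them as in fibers. Pfkfb3 was at 0.37 (0.19 to 0.56), and Pgk1 was at -0.56 (-0.81 to -0.31) in the Trem2 group and -0.11 (-0.39 to 0.17) in the resident group.

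In fiber-like cells 6 of 10 members were higher and 0 lower past the fold, beside 22.7% and 16.5% of 532 genes. Pkm was at 1.02 (0.59 to 1.47), Ldha at 0.88 (0.61 to 1.16), Pgam2 at 0.81 (0.58 to 1.04), Gapdh at 0.55 (0.43 to 0.66), Aldoa at 0.52 (0.42 to 0.62) and Eno3 at 0.50 (0.33 to 0.67). The 12 fiber markers moved with them, with 8 of 11 higher and a median of 0.90. For every 100 UMIs of these markers there were 6.53 (6.13 to 6.95) and 5.61 (5.47 to 5.76) UMIs of Aldoa. Eno3 was at 2.26 and 1.92, so both were lower in the KO-labelled library on this scale. Pgam2, at 1.24 and 1.30, and Ldha, at 0.855 and 0.944, were higher with overlapping intervals. Cells of this class had a median of 850.5 UMIs in the WT-labelled library and 2535 in the KO-labelled library, and 6 of 8 stress genes were lower, with a median of -0.89. When cells under 1000 UMIs were left out, 3 members were higher past the fold, and with no integration of the libraries before clustering 1 was. The part of depth, of the cells in the class and of fiber content in these ratios was not tested. Ldhb in fiber-like cells was at 347 CPM (237 to 490) from 32 UMIs in the WT-labelled library and 27.7 CPM (13.3 to 50.9) from 10 in the KO-labelled library, under the 100 UMIs set for a ratio.

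In types outside these 6, Slc16a3 had the largest ratio of any member with enough UMIs, at 246 CPM (163 to 355) and 959 CPM (811 to 1128) in neutrophil-like cells, 1.96 (1.37 to 2.60). It came from 28 and 147 UMIs in 20 and 33 cells. Schwann-like cells had Hk2 at 86.3 and 45.5 CPM, -0.92 (-1.49 to -0.38), Egln1 at -0.77 (-1.19 to -0.37) and Tpi1 at -0.65 (-1.04 to -0.27). Tendon-like cells had Egln1 at -0.83 (-1.05 to -0.61) and Pfkfb3 at -0.52 (-0.91 to -0.14), the latter opposite in direction to the vascular types. In T-cell-like cells Hif1a was past the fold at 0.74 (0.36 to 1.13). Dendritic-like cells had Hif1a at 0.52 (0.10 to 0.94) and Pgam1 at -0.62 (-0.98 to -0.26). Gapdh in B-cell-like and Ldha in NK-like cells were at -0.52 and -0.51.

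Other genes of glycolysis and pyruvate use were mostly short of the fold. Of 31 listed, 13 entered in FAP-like cells and 0 were past the fold in either direction, and in endothelial-like, mural-like and MuSC-like cells 1 was higher and 0 lower of 10, 10 and 6. In macrophage-like cells 0 were higher and 1 lower of 10, and in fiber-like cells 1 was higher and 0 lower of 2. Of 29 other hypoxia genes, 4 of 25 were lower and 1 higher in FAP-like, 4 of 25 lower and 0 higher in endothelial-like and 4 of 24 lower and 0 higher in mural-like cells. MuSC-like cells had 1 lower and 6 higher of 15, macrophage-like cells 4 lower and 5 higher of 18, and fiber-like cells 0 of 1. The shares of all genes lower and higher past the fold were 7.5% and 3.89% in FAP-like and 3.89% and 5.07% in endothelial-like cells. They were 4.01% and 5.87% in mural-like, 11.7% and 14.6% in MuSC-like, 7.15% and 5.74% in macrophage-like and 16.5% and 22.7% in fiber-like cells. Several of the 29 other hypoxia genes are textbook HIF targets. Vegfa, the angiogenic growth factor, was at 64.6 and 29.0 CPM in endothelial-like cells, -1.16 (-1.39 to -0.93). Adm (adrenomedullin) was at 201 and 92.3 CPM in endothelial-like cells, -1.12 (-1.25 to -0.99), at 135 and 65.6 CPM in mural-like cells, -1.04 (-1.23 to -0.85), and at 21.1 and 8.44 CPM in macrophage-like cells, -1.32 (-1.84 to -0.82). Ankrd37 was at 5.41 and 2.43 CPM in FAP-like cells, -1.16 (-1.73 to -0.60). Ddit4, an inhibitor of mTOR signaling, was at 20.04 and 6.69 CPM in FAP-like cells, -1.58 (-1.90 to -1.27), and at 16.1 and 4.05 CPM in macrophage-like cells, -1.99 (-2.72 to -1.32). Lox, a collagen cross-linking enzyme, went the other way in MuSC-like cells, at 19.9 and 48.1 CPM, 1.27 (0.68 to 1.89). The direction was not shared by all types, since Vegfa was higher in macrophage-like cells of the KO-labelled library, at 0.67 (0.36 to 0.98). The 16 stress genes had medians of 0.34, 0.23, 0.47 and -0.05 in FAP-like, endothelial-like, mural-like and macrophage-like cells, and whether handling of the tissue bears on these ratios was not tested.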

How the data were processed

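Muscle tissue was digested to single cells and 1 library per genotype was made with a Chromium 5′ kit. The submitters' processing notes name Cell Ranger 2.1.1 and the mouse build mm10, and the methods of the study name a later version of Cell Ranger, Seurat, removal of doublets with DoubletFinder and of cells rich in mitochondrial RNA, and Harmony, the removed cells being not analysed here. The authors deposited 1 table of natural log values, ln(1 + UMIs per 10000 of the cell), of 19169 genes in 13432 cells, the number of cells in the study's results, while its methods give a larger one, and no cell type annotation was used. Columns that no sample label matched numbered 0. The genotype of a cell was taken from its barcode suffix. UMIs were recovered from the deposited values, of which 29528482 above 0 lay at most 0.248 UMI from a whole number. Total UMIs per cell were 385 to 83203 in the WT-labelled library and 420 to 79159 in the KO-labelled library, with medians of 5740 and 5962.5.

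Cells were clustered in Python 3.11.15 (numpy 2.4.6, scipy 1.17.1, pandas 2.3.3, scikit-learn 1.9.0, igraph 0.11.9, scanpy 1.11.5) on 2000 variable genes without the 33 members, with 30 principal components, Harmony steps written in numpy, 20 neighbors and Louvain resolution 0.8. Clusters were named from marker lists. Joining the pericyte and smooth muscle lists, and barring the erythroid and platelet lists from naming a cluster, were decided after the clusters were seen. Doublets called by Scrublet (101 and 109 cells) were kept in the main values. The members and all lists were chosen with earlier results of these data known.

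Levels were CPM of UMIs summed per type and library, with exact Poisson intervals. Isoform shares had Clopper-Pearson intervals and needed 30 UMIs of the family. Log2 ratios of CPM needed 100 UMIs over both libraries and had exact binomial intervals. No test was run, because each genotype had 1 library. Named were all members in their highest types and some in their lowest types. Also named were members past the fold in 6 types, other pathway genes with a log2 ratio of at least 1 in size, and the types with the most different share of each family. A comparison of clusters within the Schwann-like class is not reported here. The scripts were tested on simulated data. Figures were drawn with matplotlib 3.10.9.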

Additional observations from a re-analysis of the deposited data

How the results depend on the processing

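No paired analysis was possible because each genotype had 1 library and no test was run. Alternatives changed 1 choice at a time. Of 66 levels in the highest types, 461 of 510 recomputed values moved by less than their counting interval, as did 310 of 321 family shares and 305 of 317 ratios past the fold. These ratios include 30 at a minimum of 20 UMIs and 17 at a minimum of 300 UMIs. Those could not move, because the minimum only sets which genes enter. The 3 ratios that turned in sign were Aldoa at -0.30, Gapdh at -0.13 and Eno3 at -0.33 in fiber-like cells when the libraries were not integrated. Counts of member ratios past the fold in the KO-labelled library depended more on the processing. The total of 8 higher became 5 with cells of at least 1000 UMIs, 2 with no integration, 14 with means over cells and 17 with a minimum of 20 UMIs, and the total of 22 lower became 10 with a minimum of 300 UMIs. In FAP-like cells 1 was higher with means over cells and 1 with 20 UMIs, and 2 were lower with 300 UMIs. In endothelial-like cells higher members numbered 1 at resolution 0.4, 2 with means over cells and 2 with 20 UMIs, and lower members 0 without cells holding fiber RNA, with means over cells or with 300 UMIs, 2 with no integration or with 20 UMIs, and 3 at resolution 0.4 or with ratios centred on the median of all genes. In macrophage-like cells 1 was higher without cells holding fiber RNA and 2 with 20 UMIs, and 5 were lower with 20 UMIs. In mural-like cells 0 were higher with no integration, with 300 UMIs or without the Rgs5 cluster and 3 with means over cells, and 5 were lower at resolution 0.4, 6 with 20 UMIs and 1 without the Rgs5 cluster. In MuSC-like cells 2 were higher without cells holding fiber RNA, 0 with means over cells and 3 with 20 UMIs, and 4 were lower with means over cells and 4 with 300 UMIs. In fiber-like cells 3 were higher with cells of at least 1000 UMIs and 1 with no integration, and 3 were lower with 20 UMIs. The minimum of UMIs sets how many members enter, and leaving out the Rgs5 cluster with most mural-like UMIs also changes that number. Otherwise the cause was not tested. Egln1 in FAP-like cells stayed between -0.62 and -0.54, Pgam1 in MuSC-like cells between -1.44 and -1.23, and Pgam2 in fiber-like cells ranged from 0.02 to 1.03. Clustering with no integration left no neutrophil-like cluster, and resolution 0.4 left no dendritic-like or neutrophil-like cluster, so their values had no counterpart there. The fiber-like class had 34 and 63 cells, and the counting intervals of Aldoa, Gapdh and Eno3 there reached below the fold.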
